A study of Arabidopsis thaliana with 8 samples.

Results

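The line difference at 4 h after ethanol is the transcript level in Alc::LHY seedlings relative to wild-type seedlings, read on the 2 arrays whose titles give 4 hours out of the 8 arrays of the series. The study followed Arabidopsis thaliana after ethanol at 4 times (0, 2, 4 and 8 or 9 h), with 2 replicate arrays, called S and I, per time. Every array was an Agilent 2-colour array carrying RNA of an Alc::LHY sample next to RNA of a wild-type sample of the same time. Alc::LHY plants carry LHY behind an alcohol-inducible promoter. Both lines had the Col-0 background, were 2 weeks old, and grew on MS agar in 12 h photoperiods. Each received ethanol after 17 h in continuous light, with 5 ml put on the roots and vapour kept up from filter paper of 3 cm2. No line with the ethanol switch but without the LHY copy is among the samples analysed here, so an effect of LHY, of the switch with ethanol and of other differences between the lines cannot be told apart. The labels do not say how many independent Alc::LHY lines were used. Alc::LHY RNA was in Cy5 in replicate S and in Cy3 in replicate I, and the 4 arrays of a replicate shared a slide, so these 3 factors cannot be told apart. The labels leave unsaid whether S and I were separate cultures, and p-values here measure only how far these samples spread, which can be technical. Whole seedlings were used, in which fewer cells of a type and less RNA per cell cannot be told apart.

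LHY encodes a MYB-like transcription factor that accumulates around dawn and, with its relative CCA1, represses genes of the evening in the plant circadian clock. Through clock outputs this loop is known to time light harvesting, elongation growth, hormone metabolism and cold responses over the day. In continuous light the clock runs on without day and night signals. All values below are log2 ratios of Alc::LHY over wild type unless stated otherwise, so that -1 is a halved level. Ratios of single arrays are given as those in S and in I, the 4 h arrays of the replicates unless another time is named, and ± is the standard error of the limma fit, each 4 h value resting on n = 2 arrays. A gene was called higher or lower when its Benjamini-Hochberg adjusted p over all genes tested was under 0.05.

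The lines differed at 4 h in a large share of the transcriptome, with growth, light-harvesting, glucosinolate, sulfate, nitrogen and iron genes lower in Alc::LHY and a smaller set of genes far higher. Of 21471 genes tested 7887 were called, which is 36.7%. Of these 3719 (17.3% of all genes) were higher and 4168 (19.4%) were lower. By over 1 log2 unit, 693 (3.23%) were higher and 1139 (5.3%) were lower. These shares are the background for every list below, and the median ratio over all genes was -0.01. A call rests on the mean of the same 2 arrays, which by itself favours equal signs. Among the 7887 called genes 7869 had the same sign on both, so this is no separate support. Over all genes tested 77.4% had the same sign. The ratios of the 2 arrays correlated at 0.809 across genes, which are not independent replicates. At the other times this correlation was -0.386 (0 h), 0.648 (2 h) and 0.866 (8-9 h). The balance of directions depended on the normalization. With each array centred on its median in place of loess the median over all genes moved to -0.10, the count dropped to 1443, and 23.7% of the calls were higher, against 47.2% after loess. Without the S array 3277 genes were called (1328 higher, 1949 lower), and without the I array 3901 (1642 and 2259). List counts without an array are therefore to be read against these smaller totals. The counts "with median centring" below give how many members were called under that scaling.

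**Figure D1:**
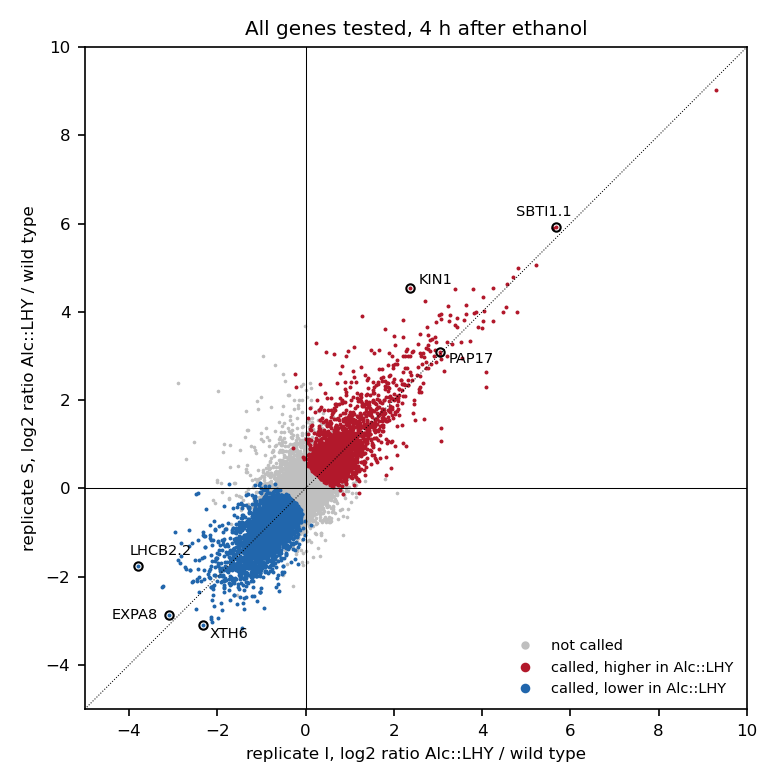
Log2 ratio of Alc::LHY over wild type of all 21471 genes tested at 4 h, replicate I on the x axis and replicate S on the y axis, with called genes in red (3719 higher) and blue (4168 lower) and the dotted line marking equal ratios. SBTI1.1 lies near the dotted line (5.92 and 5.67), KIN1 above it (4.53 and 2.36) and LHCB2.2 above it on the lower side (-1.77 and -3.79).

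LHY, the gene behind the ethanol switch, was read by a single dim probe whose position in the gene is not known here, so it is a weak check of the labels. It had 0.51 in S and 0.26 in I at 4 h (0.38 ± 0.13, adjusted p = 0.0534) and was not called. At 2 h it stood at 0.57, with an adjusted p of 0.0301 by limma. Of 14 morning MYB and LNK genes 5 were lower and 1 higher (42.9%), and of 14 day and evening genes 4 and 1 (35.7%), against 36.7% of all genes. Lower calls alone stand against 19.4% of all genes, and the list medians were -0.48 and -0.36 against -0.01. The lower calls became 3 in the morning list without the I array and 1 in the evening list without the S array. CCA1 was lower (-0.94 ± 0.22, adjusted p = 0.0168) but was not called without the I array. CHE, a factor that binds the CCA1 promoter, had -2.24 in S and -1.53 in I and was 3.69-fold lower (-1.88 ± 0.16, adjusted p = 0.000631). It was the only member of the 2 clock lists called with median centring. The replicates disagreed in several clock genes. Replicate S was above replicate I in 12 of the 14 morning genes, such as LNK3 (0.82 in S and -1.87 in I), LNK4 (1.0 in S and -1.85 in I) and CCA1 (-0.44 in S and -1.45 in I), but in 4 of the 14 evening genes, such as ELF4 (-1.18 in S and 0.44 in I) and TOC1 (-0.76 in S and 0.08 in I). Among clock outputs COL2 (-2.00 in S and -2.41 in I, -2.21 ± 0.18) and CDF1 (-1.23 in S and -1.41 in I, -1.32 ± 0.14, -0.47 on the probe nearest 0) were lower on both arrays, and FT (0.40) and CO (0.01) were not called.

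Cell wall loosening genes were lower. Expansins are wall proteins that let cellulose fibrils slide under turgor, and 12 of 17 measured members of the list were lower and 0 higher (median -0.86). EXPA8 had -2.87 in S and -3.08 in I, which is 7.87-fold lower (-2.98 ± 0.15, adjusted p = 0.000177), although the probe nearest 0 gave less (-0.75). EXPA1 had -2.41 in S and -2.10 in I (-2.26 ± 0.18), and EXPA6 had -2.24 in S and -1.85 in I (-2.04 ± 0.15). Both arrays put these 3 genes far below 0. EXPA11 (-1.48 ± 0.14) was lower too, while EXPA7 differed in sign between arrays (1.28 in S and -0.49 in I) and was not called. 7 expansins were lower with median centring, 9 without the S array and 6 without that of replicate I. EXPA20, which was not on the list and was among the 15 highest genes, went the other way with 4.33 in S and 4.02 in I (4.17 ± 0.13), so the expansin family did not move in a single direction.

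Xyloglucan endotransglucosylases, the XTH enzymes, cut and rejoin the xyloglucan that tethers cellulose. Of 22 XTH genes 12 were lower and 2 higher (median -0.51, 6 lower and 0 higher with median centring, 6 lower without the S array). XTH6 had -3.09 in S and -2.33 in I (-2.71 ± 0.31, adjusted p = 0.00141), and XTH24 had -3.02 in S and -2.12 in I (-2.57 ± 0.24, -0.87 on the probe nearest 0). In both genes the ratio of replicate S was the lower. XTH7 (-1.55 ± 0.17) and XTH8 (-1.46 ± 0.16) were lower, whereas XTH31 had 1.02 in S and 1.03 in I and was higher (1.03 ± 0.13). Its difference was smaller than at 2 h, when it stood at 2.22, but the change between these times was not called. Among 11 cellulose synthesis genes 7 were lower, including CESA5 (-1.06 ± 0.17) and CESA6 (-0.90 ± 0.15), subunits of the cellulose synthase of growing primary walls. These calls were weak, since 0 were called with median centring, 0 without the S array and 2 without that of replicate I. Arabinogalactan and extensin-like proteins had 18 of 54 members lower and 4 higher (7 lower with median centring), with FLA12 at -1.38 ± 0.11 and AGP26 at -1.47 ± 0.14. Their share called was 40.7%, near the 36.7% of all genes, and their median was -0.26.

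Genes of growth hormones were mostly lower, apart from ethylene. In the auxin list 17 of 20 were lower and 1 was higher (median -0.85, 5 lower with median centring, 9 without the S array, 11 without the I array). DFL1, a GH3 enzyme that joins auxin to amino acids, had -2.08 in S and -1.83 in I (-1.96 ± 0.14, adjusted p = 0.000376). IAA1, an auxin-induced Aux/IAA repressor, had -1.51 in S and -0.88 in I (-1.20 ± 0.10). The efflux carrier gene PIN4 stood at -1.67 ± 0.20 and TAA1, which acts in auxin synthesis, at -1.06 ± 0.12. Small auxin-up RNAs (SAUR) followed, with 23 of 52 lower and 3 higher, and 15 lower with median centring. AT3G60690 was lower on both arrays (-1.82 and -1.89), but the SAUR gene AT1G16510 was higher with 3.11 in S and 2.81 in I (2.96 ± 0.15).

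Brassinosteroids, the steroid hormones of elongation, had 10 of 12 genes lower, and all 12 lay below 0 on both arrays (median -0.85, 6 lower with median centring). The synthesis genes ROT3 (-1.35 in S and -1.37 in I, -1.36 ± 0.11) and CPD (-2.15 in S and -1.29 in I, -1.72 ± 0.19) were lower. So were BES1, a transcription factor of the response (-1.50 ± 0.14, -0.66 on the probe nearest 0), and BAS1, which inactivates the hormone (-1.42 ± 0.19). Enzymes of synthesis and of breakdown thus both had lower transcript levels. The receptor gene BRI1 had -0.06 and was not called.

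For cytokinins 12 of 14 were lower and 0 higher (median -0.76, 6 lower with median centring, 7 without the S array). They included the response regulators ARR9 (-1.96 in S and -1.31 in I, -1.63 ± 0.15) and ARR6 (-1.47 ± 0.18), the synthesis gene IPT3 (-1.21 ± 0.14), the breakdown gene CKX6 (-1.22 ± 0.14) and the receptor gene WOL (-0.68 ± 0.09). Gibberellin genes had 7 of 14 lower and 1 higher (4 and 0 with median centring, 4 lower without the I array). GA3OX1, which makes active gibberellin, was lower (-1.46 ± 0.20, -0.58 on the probe nearest 0), and GA2OX2, which inactivates it, was higher (0.76 in S and 1.18 in I, 0.97 ± 0.11, not called with median centring). GAI, a DELLA repressor of the response, was lower as well (-1.28 ± 0.11).

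Ethylene genes split, with 5 of 18 higher and 4 lower around a median of 0.00. ACS2, an enzyme making the ethylene precursor, had 3.93 in S and 3.02 in I and was 11.1-fold higher (3.47 ± 0.22, adjusted p = 0.000288). The oxidase gene ACO4 (-1.72 in S and -1.53 in I, -1.63 ± 0.13), which acts on that precursor, was lower. The other 4 genes called higher were the receptor genes ERS2 (0.39), EIN4 (0.39), ETR1 (0.46) and ETR2 (0.37), all under 1 log2 unit. The probes nearest 0 gave 0.05 for ERS2 and 0.13 for ETR1. ACS2 was the only ethylene gene called higher with median centring, and the count of higher genes was also 1 without the S array and 1 without the I array.

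**Figure D2:**
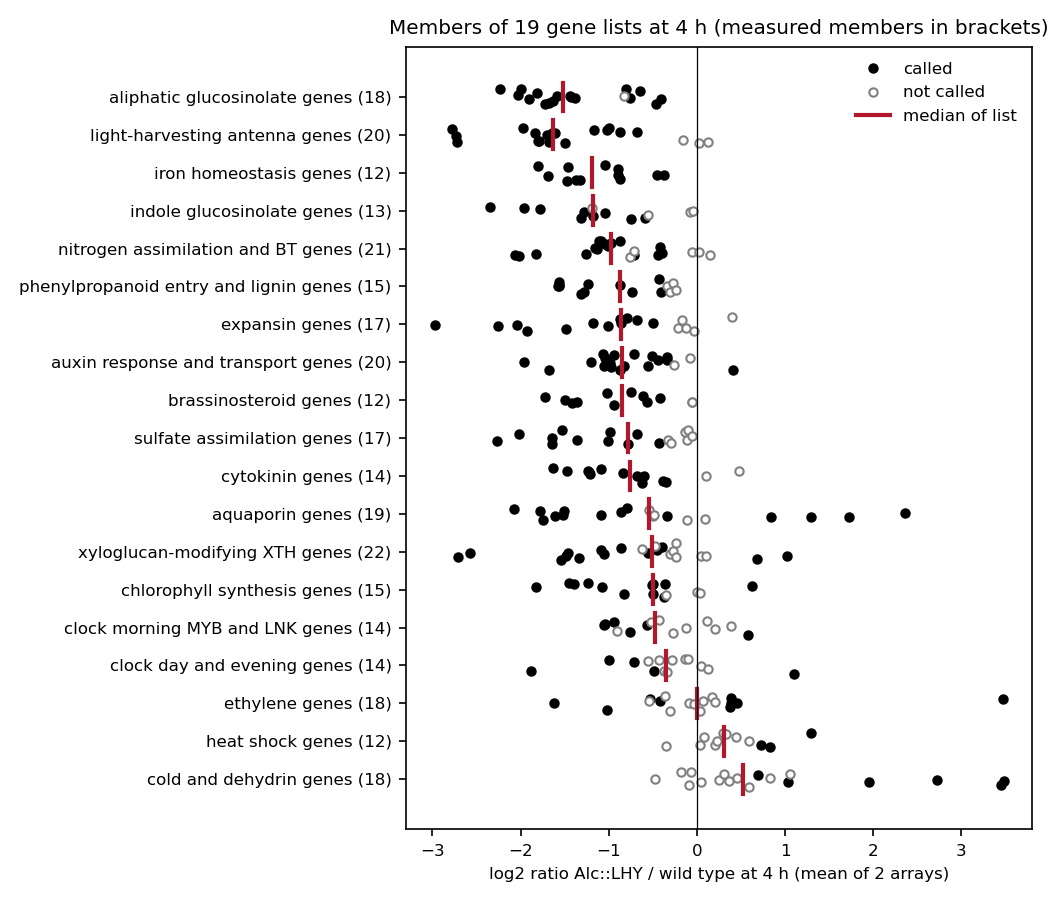
Mean log2 ratio of Alc::LHY over wild type at 4 h (x axis, n = 2 arrays) of each measured member of 19 gene lists, with filled points for called genes, open points for others and a red bar for the list's median. The medians run from -1.63 for the antenna genes to 0.52 for the cold and dehydrin genes, and the aquaporin and ethylene lists hold points on both sides of 0.

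Light-harvesting genes were among the lowest. The LHCA and LHCB proteins bind chlorophyll in the antennae of photosystems I and II, and 17 of 20 genes were lower and 0 higher (median -1.63, 12 lower with median centring, 9 without the I array). LHB1B1 had -2.22 in S and -3.23 in I (-2.72 ± 0.26, adjusted p = 0.000854), and LHCB2.1 had -1.55 in S and -1.74 in I (-1.65 ± 0.15). Replicate S gave the higher ratio in 16 of the 20, with a median of -1.06 against -1.89 in replicate I. LHCB2.2 showed the widest gap of the named members (-1.77 in S and -3.79 in I, -2.78 ± 0.37). Other probes of several of these genes lay nearer 0, at -0.34 for LHCB2.2, -0.44 for LHB1B1 and -0.82 for LHCB2.1, and near-identical copies of the family can share signal. The genes not called were LHCA5 (0.13), LHCB4.1 (0.02) and LHCB4.3 (-0.16).

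The rest of the photosynthetic apparatus moved less. Of 29 genes of photosystem cores and electron transport 15 were lower and 2 higher, with a median of -0.40 and 11 members of opposite signs on the arrays. PSAD-2 of photosystem I had -1.20 in S and -0.89 in I (-1.05 ± 0.09), and the plastocyanin gene PETE1 had -1.61 in S and -0.76 in I (-1.19 ± 0.13). With median centring 1 was lower, and 4 and 6 were lower without the array of replicate S or I. The Calvin cycle list had 9 of 17 lower, led by the plastid aldolase gene FBA1 (-1.08 in S and -1.296 in I, -1.19 ± 0.12), and 0 with median centring. Without the S array 2 of these were lower.

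Chlorophyll synthesis genes had 11 of 15 lower and 1 higher (5 and 0 with median centring, 5 lower without the S array, 7 without that of replicate I). GUN4, which promotes magnesium insertion, had -1.86 in S and -1.79 in I (-1.83 ± 0.11, adjusted p = 0.00024). CRD1, which closes the fifth ring of chlorophyll, had -1.41 in S and -1.37 in I (-1.39 ± 0.13), and HEMA1, at the entry to the pathway, stood at -1.23 ± 0.15. GSA2 of the same early steps was higher (0.62 ± 0.09) on its brightest probe, while its other probe gave -0.25. Photoreceptor and light signalling genes had 10 of 16 lower (3 with median centring, 4 without the S array). RPT2, which acts in phototropism, had -2.96 in S and -2.14 in I (-2.55 ± 0.25), and the blue light receptor gene PHOT1 had -1.97 in S and -1.28 in I (-1.63 ± 0.14, -0.26 on its other probe). Other photoreceptors stood apart from these, with PHOT2 at 0.25, PHYC at -0.13, PHYE at 0.00 and CRY2 at 0.12, none called. The PIF and shade list had 7 of 10 lower (2 with median centring, 4 without the I array). PIF4, a growth-promoting factor that phytochromes destroy, had -0.998 in S and -2.95 in I (-1.97 ± 0.31). PIF7 was close to equal on the arrays (-0.78 and -0.76).

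Glucosinolates are sulfur-rich defence compounds of the cabbage family, and their genes were lower from side chain elongation to sulfation. In the aliphatic branch, which starts from methionine, 17 of 18 genes were lower, all 18 lay below 0 on both arrays, and 12 were lower with median centring (median -1.52). MYB29, a transcriptional activator of the branch, had -1.58 in S and -1.60 in I (-1.59 ± 0.13, adjusted p = 0.000552). MAM1, which elongates the methionine side chain, had -1.86 in S and -2.20 in I (-2.03 ± 0.20). The sulfotransferase gene SOT18, which completes the core structure, had -1.55 in S and -1.31 in I (-1.43 ± 0.13). The related regulator MYB28 (-0.47 ± 0.10) was lower by less than 1 log2 unit. In the indole branch 9 of 13 were lower (6 with median centring, 4 without the I array). CYP79B3, which starts the branch from tryptophan, had -2.13 in S and -2.56 in I (-2.35 ± 0.19), and SUR1, a lyase shared by both branches, had -1.75 in S and -1.82 in I (-1.78 ± 0.15). The regulator MYB34 was lower (-1.18 ± 0.10), while MYB51 (-0.07) and MYB122 (-0.05) were not called.

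Sulfate assimilation, which feeds the same compounds, had 11 of 17 genes lower and 0 higher (median -0.78, 5 lower with median centring, 6 without the I array). APK2, a kinase that activates sulfate for sulfotransferases, had -2.06 in S and -2.46 in I (-2.26 ± 0.23, adjusted p = 0.000998). SERAT2;1, which makes the carbon skeleton of cysteine, had -1.49 in S and -1.58 in I (-1.53 ± 0.11). The ATP sulfurylase gene APS3 had -1.63 in S and -1.65 in I (-1.64 ± 0.17). A further ATP sulfurylase gene, APS4, was not on the list and belonged to the 15 highest genes, with 4.03 in S and 4.04 in I (4.03 ± 0.09). The probe nearest 0 gave 0.72. Genes of sulfur starvation were not called, with SDI1 at -0.14, LSU1 at -0.05 and LSU2 at -0.33.

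Nitrogen genes were lower in 16 of 21 members, with 0 higher (median -0.97). The count was 4 with median centring, 4 without the S array, 10 without that of replicate I and 10 with the scanner software's ratio. BT1, a BTB and TAZ domain protein, had -2.18 in S and -1.85 in I (-2.02 ± 0.25, adjusted p = 0.00181). ASN2, an asparagine synthetase gene, had -2.74 in S and -1.39 in I (-2.06 ± 0.32), and NIR1, the nitrite reductase gene, had -1.24 in S and -0.77 in I (-1.005 ± 0.15). In these the ratio of replicate S was the lower.

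All 12 of 12 measured iron genes were lower (median -1.19). 6 were lower with median centring, 7 with the scanner software's ratio, 6 without the S array and 7 without that of replicate I. BHLH100, an iron-deficiency transcription factor, had -0.76 in S and -1.34 in I (-1.05 ± 0.12, adjusted p = 0.00139). OPT3, which loads iron into the phloem, had -1.23 in S and -1.51 in I (-1.37 ± 0.17). FER1, which stores iron and rises when it is plentiful, was lower too (-1.33 in S and -2.27 in I, -1.80 ± 0.24, -0.18 on the probe nearest 0). The list thus held genes known from iron shortage and a gene known from iron excess, and both kinds had lower levels. IRT1 and FRO2, the root transporter and reductase for iron, had been above 0 at 2 h (1.22 and 0.75) and stood at -1.69 and -1.46 at 4 h.

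Phosphate genes went both ways, with 2 of 11 higher and 4 lower (1 and 2 with median centring, 1 lower without the S array, 2 without the I array). PAP17, an acid phosphatase gene, had 3.098 in S and 3.04 in I and was 8.40-fold higher (3.07 ± 0.12, adjusted p = 7.87e-05). PHO1, which exports phosphate to the xylem, was lower (-1.43 in S and -0.96 in I, -1.19 ± 0.15). SPX1 (-0.30) and SPX3 (-0.18), which respond to phosphate shortage, were not called, so PAP17 did not move with the list.

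Aquaporins, the water channels of the plasma membrane (PIP) and the vacuole (TIP), split into 10 lower and 4 higher of 19 (7 and 1 with median centring). PIP2A had -1.86 in S and -2.30 in I (-2.08 ± 0.12, adjusted p = 0.000231), PIP1B -1.29 in S and -1.94 in I (-1.61 ± 0.09) and DELTA-TIP -1.81 in S and -1.74 in I (-1.77 ± 0.19). On the other side PIP2;4 had 2.73 in S and 1.99 in I and was 5.15-fold higher (2.36 ± 0.22), and GAMMA-TIP had 1.61 in S and 0.98 in I (1.29 ± 0.17). TIP2;3 (1.72 ± 0.37) and RD28 (0.84 ± 0.22) completed the higher group, of which 2 were called without the S array. Probes of near-identical aquaporins can share signal, and the nearest probe gave -0.18 for PIP3, against -1.52 on its brightest.

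The phenylpropanoid pathway, which leads from phenylalanine to lignin and flavonoids, was lower at its entry and in the lignin branch. Of 15 genes 11 were lower and 0 higher (median -0.88, 7 lower with median centring). CCOAOMT1, a methyltransferase for lignin precursors, had -1.59 in S and -1.54 in I (-1.57 ± 0.14, adjusted p = 0.000627), and CAD4, which makes lignin alcohols, had -1.74 in S and -1.38 in I (-1.56 ± 0.11). OMT1 (-1.28 ± 0.10) and HCT (-1.23 ± 0.13, -0.36 on the probe nearest 0) were lower, and UGT72E2, which puts glucose on lignin alcohols and was among the 15 lowest genes, had -2.75 in S and -1.88 in I (-2.31 ± 0.29). The PAL genes that open the pathway differed among themselves, from -1.57 for PAL1 to -0.23 for PAL4, which was not called. Among flavonoid genes 10 of 17 were lower (2 with median centring, 3 without the I array). MYB4, a repressor within the pathway, had -1.71 in S and -1.27 in I (-1.49 ± 0.10). DFR, which commits to anthocyanins, had opposite signs (0.11 in S and -1.92 in I) and was not called.

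Some cold and dehydration genes were higher, and their ratios were larger on the S array. In the cold and dehydrin list 6 of 18 were higher, against 17.3% of all genes, and 0 lower (median 0.52, 3 higher with median centring, 3 without the S array). KIN1 had 4.53 in S and 2.36 in I (3.45 ± 0.47, adjusted p = 0.00247), COR6.6 4.25 in S and 2.71 in I (3.48 ± 0.34) and COR413IM1, a chloroplast membrane protein of cold acclimation, 3.45 in S and 2.00 in I (2.73 ± 0.39). Both arrays put these 3 genes above 2-fold, and replicate S was the higher each time. KIN1 and COR6.6 are near-identical copies whose signal cannot be separated here. Replicate S gave the higher ratio in 16 of the 18, with a median of 1.36 against 0.21, and 7 members had opposite signs, such as ERD10 (1.79 in S and -1.07 in I) and COR47 (1.51 in S and -0.60 in I). The factors CBF2 (-0.09) and CBF3 (0.31), which switch on COR genes in the cold, were not called.

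Heat shock genes had 3 of 12 higher and 0 lower, a share called of 25% that lies below the 36.7% of all genes. They leaned the same way between arrays, replicate S above replicate I in 11, and medians of 0.75 and -0.15. HSP17.4, a small heat shock protein, had 2.15 in S and 0.45 in I (1.299 ± 0.33, adjusted p = 0.0238), and HSFA2, a heat shock factor, had 1.35 in S and 0.10 in I (0.72 ± 0.23). The count was 0 without the S array, 5 without that of replicate I and 0 with median centring. ADH1, the alcohol dehydrogenase of low oxygen, differed in sign between arrays (2.31 in S and -0.23 in I, 1.04 ± 0.32, adjusted p = 0.0439, 0.46 on the probe nearest 0) and was not called without the S array (0.16). Over all genes 410 had a replicate S ratio more than 1 log2 unit above that of replicate I, and 143 the reverse. Dye, slide and replicate are the same split here, so which of them this gap moves with cannot be told apart.

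**Figure D3:**
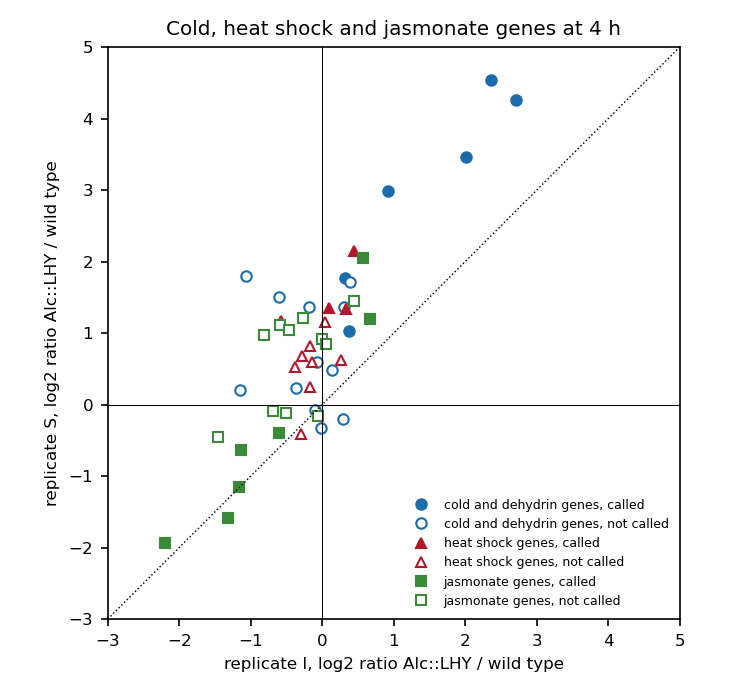
Log2 ratio of Alc::LHY over wild type at 4 h in replicate I (x axis) and replicate S (y axis) for the measured cold and dehydrin, heat shock and jasmonate genes, with filled symbols for called genes and a dotted line for equal ratios. Most points lie above the line, namely 16 of 18 cold genes, 11 of 12 heat shock genes and 16 of 18 jasmonate genes.

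Jasmonate genes, of the wound hormone, had 5 of 18 lower and 2 higher (median -0.02, 2 and 0 with median centring). The share called was 38.9%, near the 36.7% of all genes. The synthesis genes AOC1 (-1.94 in S and -2.20 in I, -2.07 ± 0.19, adjusted p = 0.00072, -0.93 on the probe nearest 0) and AOC2 (-1.59 in S and -1.32 in I, -1.45 ± 0.18) were lower. JAR1, which makes the active amino acid conjugate, was higher (2.05 in S and 0.57 in I, 1.31 ± 0.27), with 0.38 on the probe nearest 0. Without the I array 8 members were higher and 3 lower, and without that of replicate S 0 and 5.

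Abscisic acid signalling had 6 of 22 genes lower and 2 higher (4 and 1 with median centring). The share called was 36.4%, near the 36.7% of all genes, and 8 members had opposite signs on the arrays. Among the receptors PYL4 had -1.81 in S and -1.26 in I (-1.53 ± 0.16, adjusted p = 0.00102), PYL5 -1.72 in S and -1.20 in I (-1.46 ± 0.18, -0.12 on the probe nearest 0) and PYL6 -1.51 in S and -0.99 in I (-1.25 ± 0.14), whereas PYL2 (-0.34), PYL7 (-0.22) and PYL9 (-0.30) were not called. The 2 genes called higher were HAI2 (3.25 in S and 2.02 in I, 2.63 ± 0.27) and HAI3 (2.65 in S and 1.07 in I, 1.86 ± 0.36), phosphatases that oppose the signal. HAI1 of the same group had 2.31 in S and -0.11 in I and was not called. These are values of single members, and no pattern of the list is read from them. The ratios of HAI2 and HAI3 were larger in S.

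Ratios of the highest genes reached farther from 0 than those of the lowest. The protease gene SBTI1.1, of the subtilisin kind, had 5.92 in S and 5.67 in I, which is 55.5-fold higher (5.79 ± 0.15, adjusted p = 2.68e-05). AT4G29640 had 5.89 in S and 5.61 in I. Wild type did not give a signal well above background for it, and its floored fold was 50.5. A floored fold raises an undetected level, where it is lower, to the lowest level of any probe well above background on that array and dye. It is an estimate without a standard error, and the true difference can be smaller. Levels are normalized and averaged over the 2 arrays, which hold both dye orientations. EXL4, an EXORDIUM-like gene, had 4.80 in S and 4.71 in I (4.75 ± 0.23). BG3, a glucanase gene, had 4.53 in S and 4.24 in I, with a floored fold of 20.0. Among the 15 highest genes GH9B17, a cellulase-family gene, had the widest gap between arrays (4.53 in S and 3.40 in I), and wild type was not well above background for it on either array. RUG2 (3.90 ± 0.09), which is needed in chloroplasts and mitochondria, and EMB3120 (4.02 ± 0.25) belonged to the same 15. The lowest genes included DCF (-2.67 in S and -2.07 in I, -2.37 ± 0.22), which acts in cutin synthesis, TBL45 (-2.53 in S and -2.12 in I, -2.33 ± 0.16), and the loci AT5G44680 (-2.53 ± 0.17), AT1G52000 (-2.39 ± 0.18) and AT2G10940 (-2.32 ± 0.25, -0.26 on the probe nearest 0). AT3G28899 at -2.46 ± 0.22 stood apart from the other 14, having been at -3.42 before ethanol. An assembled transcript without a gene name, TA44692_3702, was the highest of all with 9.03 in S and 9.30 in I, against a mean of 1.42 at 0 h.

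**Figure D4:**
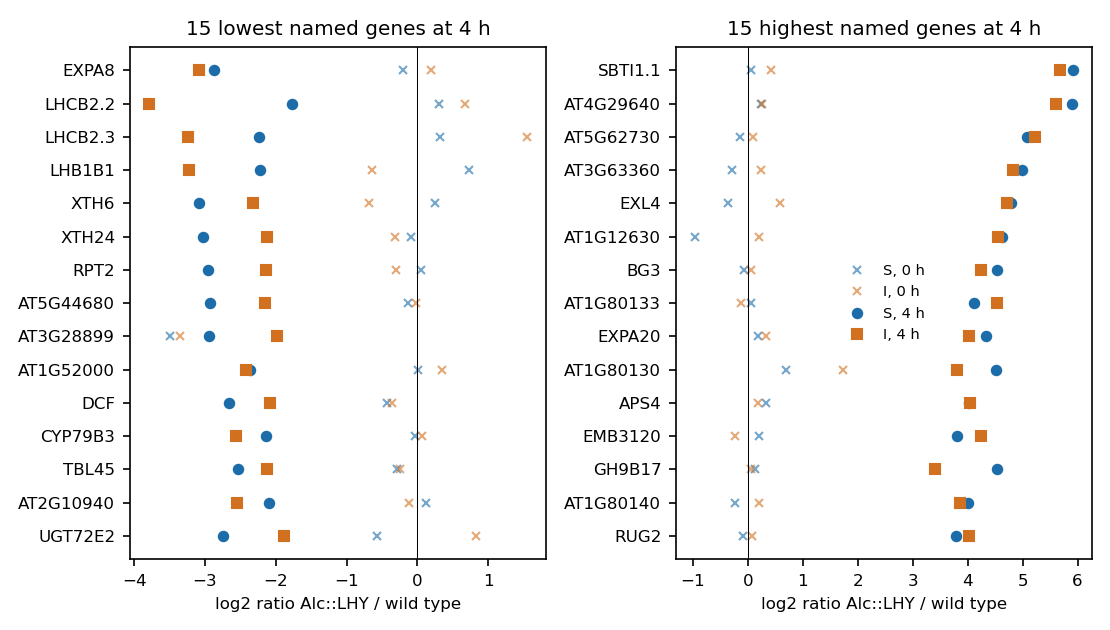
Log2 ratio of Alc::LHY over wild type on single arrays (x axis) for the 15 lowest and the 15 highest named genes at 4 h, with circles for replicate S and squares for replicate I at 4 h and crosses for the same replicates before ethanol. At 0 h the means farthest from 0 are those of AT3G28899 (-3.42), AT1G80130 (1.21) and LHCB2.3 (0.93), and the 2 arrays at 4 h differ most for LHCB2.2.

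Some of the higher genes lay side by side in the genome. Gene order was that of the TAIR10.1 annotation, counted over measured genes. Of the 151 genes over 2 log2 units higher 30 (19.9%) had a direct neighbour in the same set. Of the 52 genes over 2 log2 units lower 0 had such a neighbour. At over 1 log2 unit the shares were 21.7% of 595 higher genes and 17% of 1054 lower genes. These are descriptions, with no test. Such a share grows with the size of the set, and the share for genes scattered over the genome was not computed. The higher and the lower sets can therefore not be compared by it. A run of 3 genes on chromosome 2 held CYP76C1 (3.70, 1.89 on the probe nearest 0), CYP76C2 (2.599, 1.45 on the probe nearest 0) and CYP76C3 (floored fold 8.64). Another on chromosome 1 held AT1G80130 (4.16), AT1G80133 (floored fold 17.61) and AT1G80140 (floored fold 14.6). The CYP76C genes are related copies of terpene-oxidising cytochromes whose probes can share signal. Pairs of unrelated names included CLF (2.86), which encodes a histone methyltransferase of the Polycomb group, beside AT2G23370 (2.43). RUG2 (3.90) lay beside AT5G48320 (2.07), and EMB3120 (4.02) beside AT3G14910 (2.83). Whether transcripts read through from a neighbour was not tested.

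Families taken by the words of their gene names gave a mixed picture. Cytochromes P450 had 64 of 161 lower and 22 higher (26 and 6 with median centring), and UDP-glycosyltransferases 18 and 6 of 44 (8 and 2). Without the I array 36 P450 genes and 9 glycosyltransferase genes were lower, and without the S array 10 and 3 were higher and 37 P450 genes lower. UGT84A2 had -2.16 in S and -1.68 in I (-1.92 ± 0.11), while UGT71C4 had 1.75 in S and 1.89 in I (1.82 ± 0.09, adjusted p = 0.000176). Sugar transporters went both ways. PMT1, a polyol transporter gene, had 3.42 in S and 2.93 in I and was 9.04-fold higher (3.18 ± 0.17), while the sucrose exporter genes SWEET11 (-1.50 in S and -1.27 in I, -1.38 ± 0.13) and SWEET12 (-2.07 in S and -1.66 in I, -1.87 ± 0.12) were lower. Of 34 sugar transporters 8 were higher and 7 lower (3 and 3 with median centring).

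MYB and WRKY factors had more members called lower than higher, and ERF and DREB factors more called higher. The shares called were 39.7% of MYB, 31.6% of WRKY and 31% of ERF and DREB factors. They lay near or below the 36.7% of all genes, of which 17.3% were higher and 19.4% lower. MYB factors had 29 of 78 lower and 2 higher (13 and 0 with median centring, 19 lower without the S or the I array), with MYB30, of defence and brassinosteroid responses, at -1.36 ± 0.12 and MYB16, of cuticle formation, at -1.31 ± 0.10. WRKY factors had 14 of 57 lower and 4 higher (6 and 0 with median centring, 5 lower without the S array and 8 without the I array). ERF and DREB factors had 7 of 29 higher and 2 lower (1 and 1 with median centring, 3 higher without the S array). RAP2.9 had 3.01 in S and 2.33 in I (2.67 ± 0.14, adjusted p = 0.000177), and replicate S was above replicate I in 25 of the 29. Proteasome subunits had 9 of 30 higher and 0 lower with a small median (0.23), a share called of 30% that lies below that of all genes. At 8-9 h 24 were higher. At 4 h 0 were called with median centring, 0 without the S array and 3 without that of replicate I. In the ribosomal protein family 9 of 49 were higher and 3 lower, a share called of 24.5% that also lies below that of all genes. The called members are not all of cytosolic ribosomes. For example, RPS10 (0.75) and RPS2 (0.61) belong to mitochondrial ribosomes and RPL15 (-0.50) to those of plastids. Without the S array 3 were higher, and without the I array 0.

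The tissue label was checked on markers of root and green shoot. Root markers were measured, with SHR at -1.22, SCR at -1.03 (0.11 on its other probe), GPAT5 at -0.50 and COBL9 at 1.70, all called. CASP1 (-0.68) and RHD6 (-0.03), also root markers, were not called. Shoot markers were measured too, with LHCB3 at -1.98, RCA at -0.92 and RBCS1A at -0.51 (0.00 in S and -1.02 in I). PSBO1 (-0.08) and CA1 (0.10), also shoot markers, were not called. PLT1 and WOX5, which mark the root tip, were not among the genes tested. In the root list 4 of 11 were lower and 1 higher, and in the endodermis list 3 of 15 were lower (1 without the S or the I array). The shares called were 45.5% in the root list and 20% in the endodermis list, against 36.7% of all genes. Of the 15 endodermis genes 13 lay below 0 on both arrays (median -0.42). The root and shoot markers named here did not move as blocks, and the part of tissue proportions in the results was not tested.

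Compared with the state before ethanol, the line difference had changed in 3716 genes (17.3% of those tested), more positive in 1460 (6.8%) and more negative in 2256 (10.5%). At 0 h 3 genes were called, and all 3 were called at 4 h with the same sign. Of 20 antenna genes 16 were called more negative, as were 16 of 18 aliphatic glucosinolate genes, 12 of 20 auxin genes and 9 of 15 phenylpropanoid genes, with 0 more positive in these 4 lists. SBTI1.1 moved up by 5.55 ± 0.21 (adjusted p = 0.000342) and EXPA8 moved to -2.97 ± 0.21 relative to 0 h (adjusted p = 0.00168). The antenna genes had stood slightly above 0 at 0 h (median 0.21), none called. With median centring 0 genes differed between 4 and 0 h. The count ran from 1114 without the I array at 0 h to 2929, with 2295 without that of replicate S at 0 h, 1397 without that of replicate S at 4 h and 1908 without that of replicate I at 4 h.

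Most of the 2 h calls were still called at 4 h, and genes called at 4 h were more numerous. Of the 3043 genes called at 2 h (14.2%) 2628 were called at 4 h, which is 86.4% of the 2 h calls and 33.3% of the 4 h calls, and 60 of them had the opposite sign. The direct comparison of the times called 22 genes (0.102%), 20 more negative and 2 more positive at 4 h. Among them 18 were above 0 at 2 h and below 0 at 4 h, and all 18 were below 0 at 8-9 h as well. AT5G47980 had 0.88 in S and 1.44 in I at 2 h against -1.12 and -1.50 at 4 h (-2.47 ± 0.24, adjusted p = 0.0439). ABCG20, a transporter of suberin formation, had 0.15 and 1.57 at 2 h against -1.88 and -0.93 (-2.26 ± 0.17). TPS-CIN, a cineole synthase of roots, had 0.75 and 1.33 against -1.14 and -0.56 (-1.89 ± 0.16). In each of these the sign turned on both arrays. The root triterpene list moved alike, from a median of 1.21 at 2 h, with 4 of 5 called higher, to -0.93 at 4 h, with 4 called lower, although 0 of its genes passed in the direct comparison. The 4 lower calls became 1 without the S array at 4 h, 0 without the I array and 0 with the scanner software's ratio. THAS1, the thalianol synthase gene, had -1.16 in S and -1.05 in I at 4 h and 1.28 on average at 2 h. The 22 calls were fragile. They dropped to 0 whichever of the 8 arrays was left out, without the dye term, without background subtraction, with median centring and with the scanner software's ratio, and 3642 genes had an unadjusted p under 0.05.

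**Figure D5:**
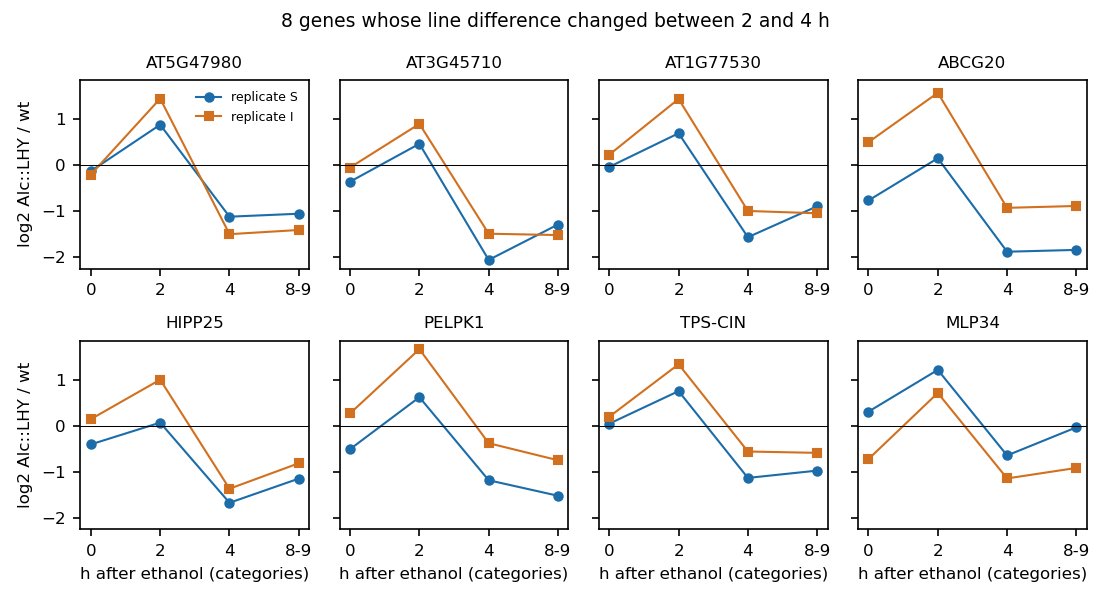
Log2 ratio of Alc::LHY over wild type on single arrays (y axis) at 0, 2, 4 and 8-9 h (x axis, drawn as categories) for the 8 named genes whose ratio differed between 4 and 2 h, with circles for replicate S and squares for replicate I joined by lines. All 16 points at 4 h lie below 0, from -2.06 for AT3G45710 in replicate S (-0.49 as the mean on the probe nearest 0) to -0.38 for PELPK1 in replicate I.

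Between 4 h and 8-9 h limma called 0 genes (0%), with 1745 genes at an unadjusted p under 0.05, and the count stayed at 0 under every alternative. Of the genes called at 4 h 5804 were called at 8-9 h, where 7885 genes (36.7%) were called, so each time shared 73.6% of its calls with the other, and 6 genes had opposite signs. Medians of lists were nearly level in some cases, such as -1.52 and -1.50 for aliphatic glucosinolate genes and -0.88 and -1.004 for the phenylpropanoid list. In others they lay apart, such as -1.63 and -0.83 for the antenna genes, -0.97 and -0.52 for nitrogen genes, and 0.52 and -0.01 for cold and dehydrin genes. No member of these lists passed the direct test.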

How the data were processed

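Per the file headers, Agilent Feature Extraction 10.7.3.1 wrote the deposited scanner files. The deposited median signal and background of a spot are intensity values, 1 per dye. The software's deposited log ratio, on the log10 scale, sets Cy5 against Cy3 after its own correction, and the authors' series matrix holds these log10 ratios turned to Alc::LHY over wild type. Median signals were used because the files hold no mean signals, contrary to the plan. No depth applies, and the number of arrays limits precision. Before normalization the median log2 ratio was 0.80 on the 4 h array of replicate S and -1.67 on that of replicate I, computed from the deposited intensities.

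Background was corrected with normexp (offset 50), and each array was normalized by loess with its 1417 control spots at weight 0. Outlier spots (161 over 8 arrays) were dropped, and spots were averaged to 43603 probes. A probe needed to be well above background in either dye on at least 2 arrays and to have a value on at least 6, which with the brightest probe per gene gave 21471 genes, 18497 with a locus. Symbols come from the RefSeq annotation of TAIR10.1. Ratios were fitted with limma 3.58.1 (R 4.3.3, statmod 1.5.0) with 4 time coefficients and a dye term, which is also the replicate block, leaving 3 residual and 3.59 prior degrees of freedom. Differences between times are contrasts of this fit. The code was tested on simulated data. Replicate letters were checked for pairing: deviations of same-lettered arrays from their time means correlated between -0.02 and 0.60 over 6 pairs of times.

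Genes named are the 15 highest and 15 lowest with a locus, up to 5 called genes per list by smallest p, and all clock genes. Also named are the 8 most changed from each of 0 and 2 h and the 5 with the largest floored folds per direction. Other list members are named to describe their list and were chosen after their values were seen. Members and lists were chosen with earlier results of these data known. Near-identical copies can share probe signal, and sequences were not used here. Promoter motifs were not analysed here.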

Additional observations from a re-analysis of the deposited data

Results flagged for a closer look

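The line difference at 4 h differed from that at 0 h in 3716 genes and from that at 2 h in 22 genes, by the contrasts of the limma fit. Against 0 h the largest changes were those of SBTI1.1 (5.55), AT4G29640 (5.50), AT5G62730 (5.18), AT1G12630 (4.97), AT3G63360 (4.93), EXL4 (4.64), BG3 (4.40) and AT1G80133 (4.36), all on the log2 scale and all towards higher levels in Alc::LHY. Each was positive on both 4 h arrays. Wild type was not well above background on either 4 h array for AT4G29640, BG3 and AT1G80133, and on 1 of the 2 for AT3G63360, so that their changes are fitted values whose size and order are uncertain. For the 4 h difference itself, floored folds were 50.5 for AT4G29640, 20.0 for BG3 and 17.61 for AT1G80133. Against 2 h the largest were those of AT5G47980 (-2.47), AT3G45710 (-2.45), AT1G77530 (-2.34), ABCG20 (-2.26), HIPP25 (-2.06), PELPK1 (-1.92), TPS-CIN (-1.89) and MLP34 (-1.86), each with an adjusted p of 0.0439 and each negative on both 4 h arrays and positive on both 2 h arrays. Groups of 2 arrays are too small to look for a single array far from the others.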

How the results depend on the processing

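With 2 arrays per time and 3 residual degrees of freedom, counts moved more than the signs of named genes. The balance of directions moved too, from 47.2% of calls higher to 23.7% with median centring. Of 7887 genes called at 4 h (3719 higher, 4168 lower), median centring in place of loess left 1443 (342 and 1101), and the 2 arrays of 4 h alone gave 2299 higher. Leaving out each array in turn gave 3277 to 7740 calls, 1328 to 3570 higher and 1949 to 4170 lower. The comparison with 0 h (3716) dropped to 0 with median centring and ran from 1114 to 2929 without single arrays. The 22 genes of the comparison with 2 h became 0 without the replicate block (the dye term), without background subtraction, with median centring, with the scanner software's ratio, with the authors' matrix and whichever array was left out, 1 with a normexp offset of 10, 76 without the filter on dim probes, 34 with probes averaged per gene and 44 with robust moderation. The comparison with 8-9 h stayed at 0 under every alternative. Without the replicate block 6508 genes were called at 4 h and 2695 against 0 h.

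Of 313 called named genes 171 were still called with median centring, 224 without the replicate S array at 4 h, 251 without that of replicate I, 291 without the replicate block and 282 with the scanner software's ratio. PSBY turned to 0.027 (adjusted p = 0.915) with probes averaged per gene. LNK3, not called in the main setting, ranged from -1.80 without the 4 h array of S to 0.75 (adjusted p = 0.0383) without that of I, as its arrays had opposite signs. No other named gene reversed. The cause of the difference between loess and median centring was not tested. The planned search for promoter motifs was not run.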

Other observations

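At 4 h some genes were detected in 1 line alone. Of 21471 genes tested, 326 were well above background in wild type on both arrays and in Alc::LHY on neither. The reverse pattern held for 162. Detection differed between dyes and arrays. In replicate S 61.2% of spots were well above background for Alc::LHY (Cy5) and 57.5% for wild type (Cy3). In replicate I the shares were 51.4% for Alc::LHY (Cy3) and 62.4% for wild type (Cy5). The 2 counts were not adjusted for this and cannot be compared as a difference between the lines. The largest floored folds on the lower side were 2.21 for AT3G45920, 1.77 for AT4G10150 and 1.68 for BEE3, a transcription factor gene of the brassinosteroid response. Those on the higher side reached 50.5 for AT4G29640.

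HON4, which encodes an H1-like protein, had 2.27 in S and 1.89 in I (2.08 ± 0.12, adjusted p = 0.000217) on its brightest probe, but 0.07 on the probe nearest 0. Of 18 histone genes 3 were higher and 4 lower around a median of -0.18 (1 and 0 with median centring). Their share called was 38.9%, near the 36.7% of all genes. All 3 catalase genes were lower, CAT2 with -1.16 in S and -1.07 in I (-1.11 ± 0.16), CAT1 with -1.22 in S and -0.75 in I (-0.99 ± 0.19, -0.41 on the probe nearest 0) and CAT3 with -1.37 in S and -0.40 in I (-0.88 ± 0.21), of which CAT1 and CAT3 lost the call without the replicate S array at 4 h. CAMBP25, a calmodulin-binding protein gene, was higher with 2.22 in S and 1.87 in I (2.04 ± 0.13). Starch genes went both ways. Of 18 breakdown genes 3 were higher and 2 lower (27.8% called), and of 12 synthesis genes 1 and 3 (33.3%). Both shares lay below the 36.7% of all genes, and 0 were called in either list with median centring. Single members were BAM4 at 0.92 ± 0.13 and GBSS1, which makes amylose, at -2.03 ± 0.34 (-1.25 in S and -2.82 in I). Of 2342 called genes with several probes, 176 had a probe of opposite sign nearest 0.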
